A study of Mus musculus with 4 samples.

Results

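The 9 genes described here encode transcription factors that set lineage in the epithelium of the lung and of the gut tube. They are Nkx2-1, Foxa1, Foxa2, Foxa3, Hnf4a, Pdx1, Gata6, Sox9 and Sox2, matched by symbol among the 24391 genes in each count file. They were selected on fold changes between the groups that were already known from these samples, so their levels and fold changes are a description of these samples and not a test of the choice. The study sequenced RNA from 4 mouse lung tumour samples. The 2 samples labelled K-Ras came from tumours with K-Ras LSL-G12D, a mutant K-Ras allele kept silent by a removable stop cassette. The 2 samples labelled K-Ras Mll4-/- carried the same allele together with Mll4 fl/fl, floxed copies of the gene now called Kmt2d, which encodes a histone H3 lysine 4 methyltransferase of enhancers. All 4 were depleted of CD45-bearing leukocytes before RNA extraction. The Cre driver, age, sex and strain of the mice, and whether the replicates are different mice, are not given in the sources used here, so p-values measure only the spread between these samples.

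In the lung, Nkx2-1 is the factor that defines the epithelium from its first specification, and it is needed in alveolar cells for the surfactant programme. The forkhead factors Foxa1 and Foxa2 open chromatin across the endoderm, and where Nkx2-1 is lost from mouse lung tumours they are known to take part in a gastric programme that includes Hnf4a. Pdx1 belongs to the distal stomach, duodenum and pancreas, while Sox9 marks the distal tips and Sox2 the proximal airways of the branching lung.

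Reads assigned to genes numbered 26683033 to 36677987 per sample, in ranges that overlapped between the groups. Levels are given as CPM, counts scaled to a common library size with TMM factors (the trimmed mean of M values). Kmt2d itself was at 395 and 526 CPM in the K-Ras samples and at 367 and 317 CPM in the K-Ras Mll4-/- samples, so transcripts of the targeted gene remained and these totals per gene do not show the deletion. Lung epithelium was present in every sample, with surfactant gene Sftpc at 5842 and 10747 CPM in K-Ras against 7740 and 5748 CPM in K-Ras Mll4-/- samples. Summed markers of epithelial cells were at 1227 and 2086 CPM in K-Ras against 4458 and 4812 CPM in K-Ras Mll4-/- samples. Of the 9, 7 had a positive log2 fold change, the largest in the keratins Krt7 (2.51), Krt18 (2.07), Krt19 (1.89) and Krt8 (1.41). Cldn3 (-0.79) and Cldn4 (-0.88) were negative. A level set against this sum thus also depends on these keratins. Leukocyte transcripts remained after the CD45 depletion. Ptprc, the gene of CD45, was at 274.5 and 143 CPM in K-Ras against 269 and 171 CPM in K-Ras Mll4-/- samples. In such bulk samples a smaller number of cells and less RNA per cell cannot be told apart. K-Ras replicate 2 stood apart in airway markers. Its 8 ciliated cell markers, none of them at 0 reads in any sample, summed to 799 CPM, against 142 CPM in K-Ras replicate 1 and 79.6 and 83.0 CPM in the K-Ras Mll4-/- samples. Its 6 club cell markers summed to 3697 CPM, against 731, 784 and 600.1 CPM.

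Sequence upstream of the annotated start is shown for the factor whose values overlapped most between the groups, Nkx2-1, and for the pair tied to stomach and gut, Pdx1 and Hnf4a. It comes from the RefSeq promoter table of GRCm38.p6, a later build than the mm9 named in the submitters' processing notes, and is used only as sequence. Hnf4a has 2 starts in that table, and the more upstream one is listed first here. Each run is given 5′ to 3′ on the gene's strand, and capitals mark CCAAT or its reverse complement. Windows were cut at the outermost start of the gene in GENCODE M21 or RefSeq, and at GENCODE M21 exons that held an end of the window. The run at the downstream Hnf4a start lies inside the span of transcripts from the upstream start, so those bases can be transcribed.
Nkx2-1, chr12:56536909-56537158, minus strand: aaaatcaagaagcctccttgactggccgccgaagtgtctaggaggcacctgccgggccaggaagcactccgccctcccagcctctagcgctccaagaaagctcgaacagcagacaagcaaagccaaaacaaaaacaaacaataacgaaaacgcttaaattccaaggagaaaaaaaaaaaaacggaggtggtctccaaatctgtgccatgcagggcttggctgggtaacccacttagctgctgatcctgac
Pdx1, chr5:147269847-147269958, plus strand: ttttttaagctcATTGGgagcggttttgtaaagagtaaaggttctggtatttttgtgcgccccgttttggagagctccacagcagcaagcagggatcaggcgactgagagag
Hnf4a upstream start, chr2:163506607-163506807, plus strand: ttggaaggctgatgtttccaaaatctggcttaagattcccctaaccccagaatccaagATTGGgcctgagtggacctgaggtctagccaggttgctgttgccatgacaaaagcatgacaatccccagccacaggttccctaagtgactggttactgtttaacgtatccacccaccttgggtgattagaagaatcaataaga
Hnf4a downstream start, chr2:163546943-163547154, plus strand: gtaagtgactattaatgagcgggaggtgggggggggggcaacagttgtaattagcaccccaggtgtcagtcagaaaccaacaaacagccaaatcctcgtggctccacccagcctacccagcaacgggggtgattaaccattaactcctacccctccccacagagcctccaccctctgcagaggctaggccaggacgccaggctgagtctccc

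In the full 250 bases before each start, on both strands, Nkx2-1 held none of the motifs searched. These were TGTTTAC and TATTTAC (forkhead type), CAAGTG (the core bound by Nkx2-1), CAAAGTCCA (Hnf4 type), CCAAT and TATAAA. Pdx1 held CAAGTG 128 bases before its start, beyond the stretch printed, and CCAAT at 238 and 74 bases, the latter also beyond it. Hnf4a held CCAAT 192 bases before its upstream start and 216 bases before its downstream start, the latter outside the stretch printed. Among 32851 windows of the same length outside chromosome 18, 11.6% held CAAGTG and 33.8% held CCAAT. Sox9 and Gata6 were not among the members searched. Of those searched, Foxa1 was the member with a TGTTTAC match, 141 bases before its start, which 3.17% of windows hold. None of their windows held CAAAGTCCA, which 0.384% of windows hold. The windows differed in CpG dinucleotides, from 3 at the upstream start of Hnf4a and 10 at Pdx1 to 27 at Sox2. Such matches describe letters in these windows only.

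In CPM, a factor of distal lung progenitors, factors of stomach and gut and factors shared with lung were higher in the K-Ras Mll4-/- samples. Nkx2-1, which defines the lung epithelium, overlapped between the groups. The ratio of group means was 12.5 for Sox9, 4.05 for Hnf4a, 2.03 for Gata6 and 1.87 for Foxa2, and Pdx1 was detected in the K-Ras Mll4-/- samples only. Gata6 and Foxa2 were instead the lower in both K-Ras Mll4-/- samples when set against summed epithelial markers, a sum that includes the keratins named above. So were Nkx2-1, Foxa1 and Foxa3, and the gap of Hnf4a narrowed on that scale, with values given beside each gene. The ratio of group means in CPM was 1.04 for Nkx2-1, 1.31 for Foxa1 and 1.21 for Sox2, whose groups overlapped. Of the 9 factors, 4 were higher in the K-Ras Mll4-/- samples with an unadjusted edgeR quasi-likelihood p under 0.05, namely Pdx1, Sox9, Hnf4a and Gata6, and 0 were lower. Across the 16001 genes tested, 11.4% were higher and 10.4% lower by that rule. None of the 9 was called at an adjusted p under 0.05, where 0.0375% of all genes were called (6 genes, all higher). For 6 of the 9 both K-Ras Mll4-/- samples were above both K-Ras samples, against 29.9% of all genes, and for 0 both were below, against 28.5%. All 9 had a positive log2 fold change, with a median of 0.90 beside -0.01 for all genes tested. Since the members were picked with this contrast in view, nothing is read from these counts.

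**Figure D1:**
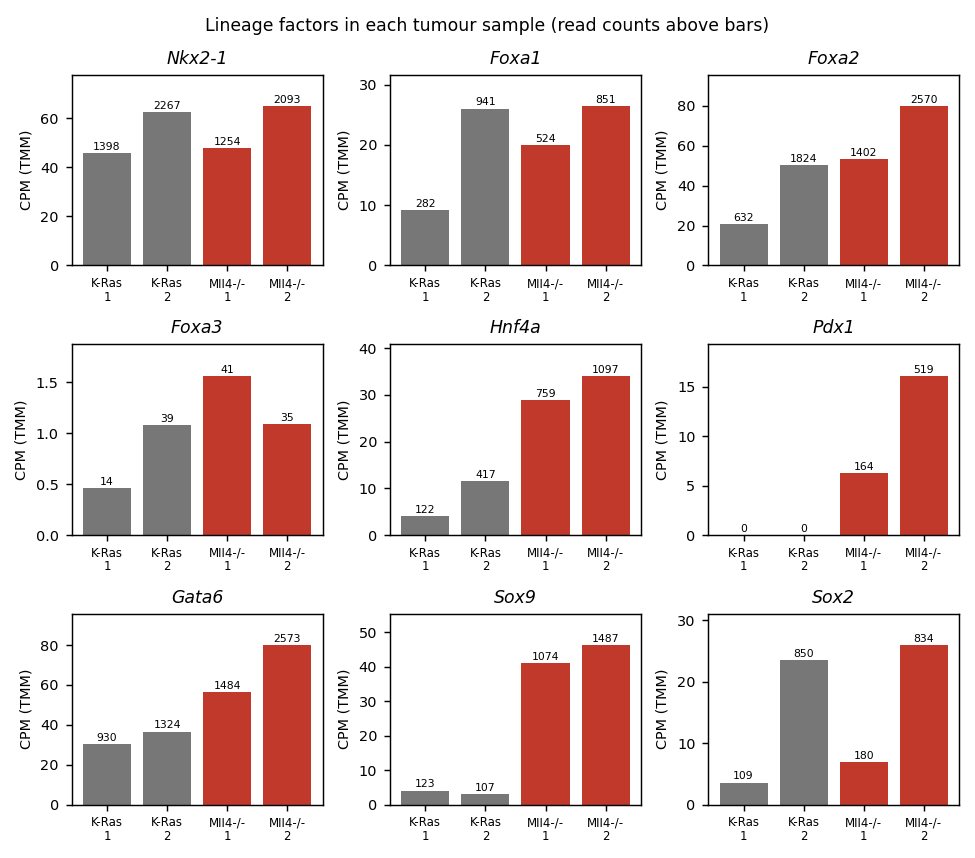
TMM-normalised CPM of each lineage factor (vertical axes, 1 panel per gene) in the 2 K-Ras samples (grey) and the 2 K-Ras Mll4-/- samples (red), with the read count above each bar. Pdx1 had 0 reads in both grey bars, Sox9 and Hnf4a separated the groups, Nkx2-1 overlapped, and Sox2 followed the replicate number in both groups.

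In CPM, the lung-defining factor differed between the groups by less than its replicates did. Nkx2-1 was at 45.7 and 62.7 CPM in the K-Ras samples and at 47.8 and 64.9 CPM in the K-Ras Mll4-/- samples. The ranges overlapped almost wholly, with 1254 to 2267 reads behind each value. Its means were 54.2 ± 12.03 and 56.4 ± 12.15 CPM (SD, n = 2 each), and the log2 fold change was 0.06 (SE 0.24, adjusted p = 0.913 by edgeR). The interval of 1 SE either side spans no change, and the sign turned in the fits without K-Ras replicate 1 (-0.15) and without K-Ras Mll4-/- replicate 2 (-0.19). E030019B13Rik, the noncoding neighbour of Nkx2-1 now named Sfta3-ps, does not overlap it and was chosen after its values were seen. It was at 114 and 161 CPM in K-Ras against 143 and 185 CPM in K-Ras Mll4-/- samples, and the groups overlapped there too (log2 fold change 0.25, SE 0.24, adjusted p = 0.563 by edgeR).

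Against the epithelial adhesion gene Epcam in the same sample, Nkx2-1 separated the groups. It had 45.1 and 49.9 reads per 100 Epcam reads in the K-Ras samples and 26.2 and 27.8 in the K-Ras Mll4-/- samples. Both K-Ras Mll4-/- values were the lower. Epcam itself was at 114 ± 17.2 CPM in K-Ras against 208 ± 36.2 CPM in K-Ras Mll4-/- samples (SD, n = 2 each), and its log2 fold change of 0.87 was not called (adjusted p = 0.160 by edgeR). These ratios need no scaling between samples, were added after the data had been seen, and are given with no test.

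The genes most like Nkx2-1 across the 4 samples, by root mean square difference in centred log2 CPM, were Nr6a1 (0.0218), Kctd3 (0.0301) and Calr3 (0.0357). As many as 4088 of the 16001 genes lay within 0.25 of it, so a pattern this flat sets few genes apart.

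None of the 3 forkhead factors passed the test. Foxa1 was at 9.22 and 26.0 CPM in the K-Ras samples and at 20.0 and 26.4 CPM in the K-Ras Mll4-/- samples, so the groups overlapped and K-Ras replicate 1 was the low value. Its log2 fold change of 0.39 (SE 0.53, adjusted p = 0.690 by edgeR) turned to -0.16 without that sample. Foxa2 was at 20.7 and 50.5 CPM in K-Ras against at 53.4 and 79.7 CPM in K-Ras Mll4-/- samples. Both K-Ras Mll4-/- samples were above both K-Ras samples, though the nearest values, 50.5 and 53.4 CPM, lay close together. The log2 fold change of Foxa2 was 0.90 (SE 0.48, adjusted p = 0.336 by edgeR), and it was 0.40 without K-Ras replicate 1. Per 1000 CPM of the 9 summed epithelial markers, a scaling added after the data had been seen, Foxa2 was at 16.85 and 24.2 CPM in K-Ras against 11.98 and 16.6 CPM in K-Ras Mll4-/- samples. On that scale both K-Ras Mll4-/- samples were the lower. The same held for Foxa1 (7.52 and 12.5 CPM in K-Ras, 4.48 and 5.49 CPM in K-Ras Mll4-/- samples). It also held for Foxa3 (0.373 and 0.517 CPM against 0.350 and 0.226 CPM).

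Foxa3, a factor better known from liver and gut, was hardly expressed. It had 14 and 39 reads in the K-Ras samples and 41 and 35 reads in the K-Ras Mll4-/- samples, or 0.458, 1.08, 1.56 and 1.09 CPM in that order. Its highest K-Ras value and its lowest K-Ras Mll4-/- value were the same within counting error (log2 fold change 0.77, SE 0.57, adjusted p = 0.467 by edgeR). Per 100 Epcam reads the groups overlapped for each of the 3 forkhead genes. Foxa1 had 9.10 and 20.7 in K-Ras and 10.9 and 11.3 in K-Ras Mll4-/- samples, and Foxa2 had 20.4 and 40.2 against 29.3 and 34.2. Against Nkx2-1 rather than Epcam, Foxa2 had 45.2 and 80.5 reads per 100 Nkx2-1 reads in K-Ras and 112 and 123 in K-Ras Mll4-/- samples. Foxa2 reads thus outnumbered those of Nkx2-1 in both K-Ras Mll4-/- samples and in neither K-Ras sample.

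Among the factors of stomach and gut, Hnf4a, a nuclear receptor of liver, intestine and gastric-type tumours, was present in every sample. It was at 3.99 and 11.5 CPM in the K-Ras samples (122 and 417 reads) and at 28.9 and 34.0 CPM in the K-Ras Mll4-/- samples (759 and 1097 reads). The groups did not overlap, and the K-Ras samples differed from each other by more than the K-Ras Mll4-/- samples did. The means were 7.76 ± 5.34 and 31.5 ± 3.63 CPM (SD, n = 2 each), a 4.05-fold ratio of means. The log2 fold change of 2.02 (SE 0.54) was not past the threshold (adjusted p = 0.177 by edgeR) and ranged from 1.45 without K-Ras replicate 1 to 2.97 without K-Ras replicate 2. The alternatives DESeq2 and the edgeR likelihood ratio test called it (adjusted p = 0.00200 and 0.00922), and over all alternatives its adjusted p ran from 0.00200 to 0.772. Per 100 Epcam reads Hnf4a had 3.94 and 9.18 in K-Ras and 15.9 and 14.6 in K-Ras Mll4-/- samples, still without overlap. Per 1000 CPM of the 9 summed epithelial markers the gap was narrower. Hnf4a was there at 3.25 and 5.53 CPM in K-Ras against 6.48 and 7.07 CPM in K-Ras Mll4-/- samples.

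Pdx1, a homeodomain factor of pancreas, duodenum and the gastric antrum, was detected in the K-Ras Mll4-/- samples and in neither K-Ras sample. It had 0 reads in both K-Ras libraries, which allows up to 0.0981 and 0.0830 CPM at the floor of 3 reads per library. It had 164 and 519 reads in the K-Ras Mll4-/- libraries, or 6.25 and 16.1 CPM. Set against the mean of the K-Ras floors, the K-Ras Mll4-/- mean of 11.2 ± 6.97 CPM (SD, n = 2) was at least 123-fold higher, and the lower of the K-Ras Mll4-/- values was 63.7 times the higher floor. Pdx1 passed the count filter through the K-Ras Mll4-/- samples alone, so a difference was bound to follow. The edgeR quasi-likelihood adjusted p was 0.135. It was 4.47e-10 with DESeq2 and 1.36e-16 in the likelihood ratio test, and ranged from 1.36e-16 to 0.600 over the alternatives run. No expression of Pdx1 was detectable in the K-Ras samples at this depth.

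The gene on the opposite strand at the 5′ end of Pdx1, listed as 2210019I11Rik and now named Plut, followed the same pattern. It had 1 and 0 reads in the K-Ras samples and 103 and 285 reads in the K-Ras Mll4-/- samples, at 3.92 and 8.84 CPM. Against the floor its mean of 6.38 ± 3.48 CPM (SD, n = 2) was at least 70.5-fold higher. Like Pdx1, it passed the count filter through the K-Ras Mll4-/- samples alone, so a difference was bound to follow. The strand setting of the counting is not given in the sources used here, so reads of Pdx1 and of its antisense partner cannot be told apart where they overlap.

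By the same measure of likeness, 2210019I11Rik was the third nearest of the 16001 genes to Pdx1, with a root mean square difference of 0.574. Nearer to Pdx1 were Krt14 (0.468), a keratin of basal cells, and Gkn2 (0.492), the gastric gastrokine-2. No gene lay within 0.25 of it. Krt14 had 0 and 2 reads in the K-Ras samples and 185 and 1119 in the K-Ras Mll4-/- samples. Like Pdx1, it was the higher in K-Ras Mll4-/- replicate 2. Krt14 and 2210019I11Rik also passed the count filter through the K-Ras Mll4-/- samples alone. Their likeness to Pdx1 in the group difference was thus bound to follow. Such likeness over 4 samples describes these libraries only.

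Gata6, a zinc finger factor of endoderm, alveolar epithelium and stomach, was at 30.4 and 36.6 CPM in the K-Ras samples and at 56.5 and 79.8 CPM in the K-Ras Mll4-/- samples. The groups did not overlap, and the means were 33.5 ± 4.40 and 68.2 ± 16.5 CPM (SD, n = 2 each). The log2 fold change was 1.02 (SE 0.22, adjusted p = 0.157 by edgeR), and DESeq2 (adjusted p = 0.00862) and the likelihood ratio test (adjusted p = 0.00765) called it, within a range of 0.00765 to 0.772 over the alternatives. Set against Epcam the gap was small. Gata6 had 30.0 and 29.2 reads per 100 Epcam reads in K-Ras and 31.0 and 34.2 in K-Ras Mll4-/- samples. Per 1000 CPM of the 9 summed epithelial markers the order turned, with 24.8 and 17.6 CPM in K-Ras against 12.7 and 16.6 CPM in K-Ras Mll4-/- samples. The noncoding gene that starts opposite Gata6, listed as 1010001N08Rik and now named Gata6os, was at 1.34 and 1.63 CPM in K-Ras against 3.999 and 5.37 CPM in K-Ras Mll4-/- samples (log2 fold change 1.65, SE 0.34, adjusted p = 0.153 by edgeR). As for Pdx1, reads of this pair cannot be told apart where they overlap. The summed markers of endothelial cells were at 6960 and 6692 CPM in K-Ras against 4366 and 3439 CPM in K-Ras Mll4-/- samples, and those of fibroblasts at 2485 and 1136 against 846 and 864 CPM. The part of these cell types in the level of Gata6 was not tested.

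**Figure D2:**
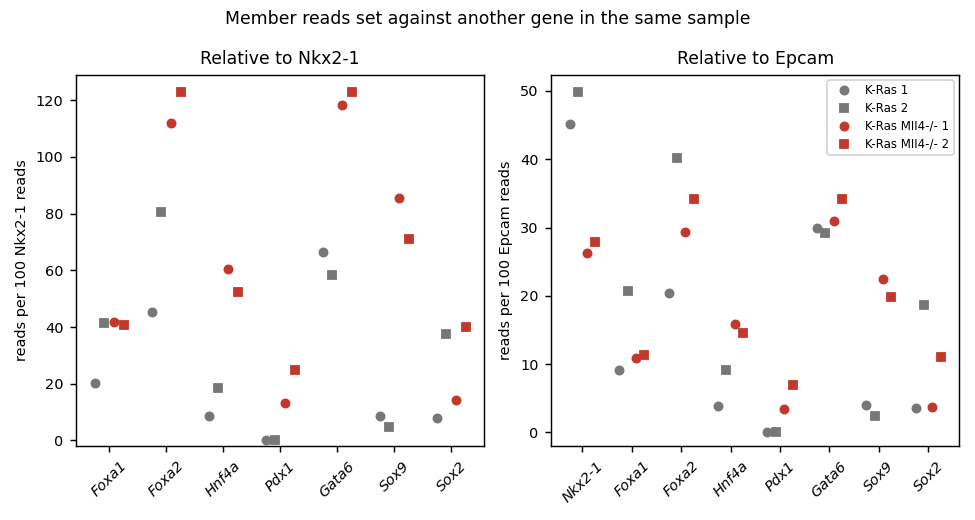
Reads of each lineage factor per 100 reads of Nkx2-1 (left) and per 100 reads of Epcam (right) in the same sample, grey for K-Ras, red for K-Ras Mll4-/-, circles for replicate 1 and squares for replicate 2. Sox9, Hnf4a and Pdx1 kept the groups apart in both panels, while Gata6 and Foxa2 lay close together or overlapped relative to Epcam, and Foxa3, below 4 per 100 in each case, is left out.

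Of the progenitor factors, Sox9 had the largest fold of any member seen in both groups. Sox9, which marks distal lung progenitors, was at 4.02 and 2.96 CPM in the K-Ras samples (123 and 107 reads) and at 40.9 and 46.1 CPM in the K-Ras Mll4-/- samples (1074 and 1487 reads). Replicates lay close together in each group, and the groups were far apart. The means were 3.49 ± 0.751 and 43.5 ± 3.70 CPM (SD, n = 2 each), a 12.5-fold ratio of means. The log2 fold change was 3.64 (SE 0.23, adjusted p = 0.0603 by edgeR), just above the threshold, and 0.706% of all genes had a log2 fold change of at least 3. Over the fits that left out 1 sample it ranged from 3.42 to 3.88. It was called without K-Ras replicate 1 (adjusted p = 0.0254 by edgeR), a fit in which the lone K-Ras sample is assumed to vary like the other group, while the other 3 such fits gave an adjusted p of 0.0902, 0.2445 and 0.438 by edgeR. It was also called with no count filter (adjusted p = 0.0110 by edgeR), by DESeq2 (adjusted p = 1.16e-31) and in the likelihood ratio test (adjusted p = 1.45e-25), and its adjusted p ran from 1.16e-31 to 0.438 over the alternatives.

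Per 100 Epcam reads Sox9 had 3.97 and 2.36 in the K-Ras samples and 22.4 and 19.8 in the K-Ras Mll4-/- samples. Per 100 Nkx2-1 reads it had 8.80 and 4.72 against 85.7 and 71.0. The separation thus held against Nkx2-1, whose groups overlapped, and against Epcam, which was higher in both K-Ras Mll4-/- samples. Per 1000 CPM of the 9 summed epithelial markers it was at 3.28 and 1.42 CPM against 9.17 and 9.59 CPM. The part of fibroblasts, whose summed markers are given above for Gata6, in the level of Sox9 was not tested.

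Sox2, the factor of proximal airway cells, varied more between the replicates of a group than between the group means. It was at 3.56 and 23.5 CPM in the K-Ras samples and at 6.86 and 25.9 CPM in the K-Ras Mll4-/- samples. Replicate 2 was the high sample in each group, and the groups overlapped. The log2 fold change of 0.27 had an SE of 1.06 (adjusted p = 0.902 by edgeR), and it ranged from -0.99 without K-Ras Mll4-/- replicate 2 to 2.19 without K-Ras replicate 2. Sox2ot, a noncoding gene within whose span Sox2 lies, had 1 and 18 reads in the K-Ras samples and 4 and 45 reads in the K-Ras Mll4-/- samples, again with replicate 2 higher in each group.

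The airway markers beside Sox2 were not alike in the replicate 2 samples. K-Ras replicate 2 had the ciliated and club cell markers given above at their highest, whereas K-Ras Mll4-/- replicate 2 had them at 83.0 and 600.1 CPM, near or below the values of replicate 1. K-Ras Mll4-/- replicate 2 instead had the highest sum of the 4 basal cell markers, 125 CPM, against 28.6 CPM in replicate 1 and 3.11 and 6.59 CPM in the K-Ras samples. Trp63, the basal cell factor, made up 88.6 CPM of it and the basal keratin Krt14 34.7 CPM. Another basal keratin, Krt5, was at 0.620 CPM there. The part of these cell types in the level of Sox2 was not tested.

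**Figure D3:**
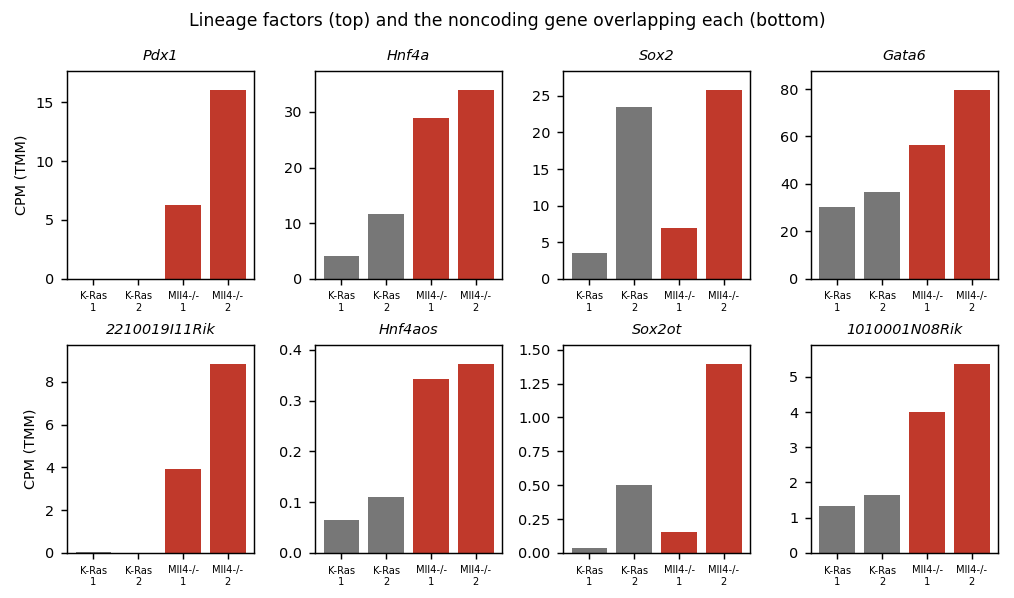
TMM-normalised CPM of 4 lineage factors (top row) and of the noncoding gene that overlaps each in the annotation (bottom row) in the K-Ras samples (grey) and the K-Ras Mll4-/- samples (red). In each column the order of the 2 group means is the same in both rows, and 2210019I11Rik, with 1 read in the K-Ras samples together, follows Pdx1.

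Hnf4aos, antisense to the 5′ part of Hnf4a, had 2 and 4 reads in the K-Ras samples and 9 and 12 reads in the K-Ras Mll4-/- samples. Its level of at most 0.372 CPM was small beside that of Hnf4a. The log2 fold change of Hnf4aos was 1.96 (SE 0.63, adjusted p = 0.197 by edgeR), and reads of the pair cannot be told apart where they overlap. Hnf4aos passed the count filter through the K-Ras Mll4-/- samples alone, so a positive value was bound to follow. At the 5′ end of Foxa1 the overlapping gene 4921506M07Rik, now Ttc6, was at 3.70 and 5.23 CPM in K-Ras against at 4.80 and 5.74 CPM in K-Ras Mll4-/- samples, in overlapping ranges like those of Foxa1.

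Set per kilobase of the longest GENCODE M21 transcript, so that genes can be compared, Nkx2-1 led in the K-Ras samples with a mean of 19.3 CPM per kb. Foxa2 followed at 16.7, with values of 9.71 and 23.7 that enclosed those of Nkx2-1 (16.3 and 22.3). Gata6 was at 8.86, Sox2 at 6.58 and Foxa1 at 5.53 CPM per kb, an order that their spread did not separate. Hnf4a (1.78), Sox9 (0.844) and Foxa3 (0.377) came last among the detected members, below those genes in each sample, and Pdx1 was at 0.

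In the K-Ras Mll4-/- samples the order of levels per kb was another. Foxa2 came to 31.3 CPM per kb, above Nkx2-1 at 20.1 and Gata6 at 18.02, and the ranges of the latter pair overlapped. Sox9, at 10.5, was the fourth highest member there and stood above Foxa1 (7.26) and Hnf4a (7.21) without overlap, but within the range of Sox2 (3.33 to 12.6). Pdx1 reached 5.18 CPM per kb, while Foxa3 stayed at 0.650.

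**Figure D4:**
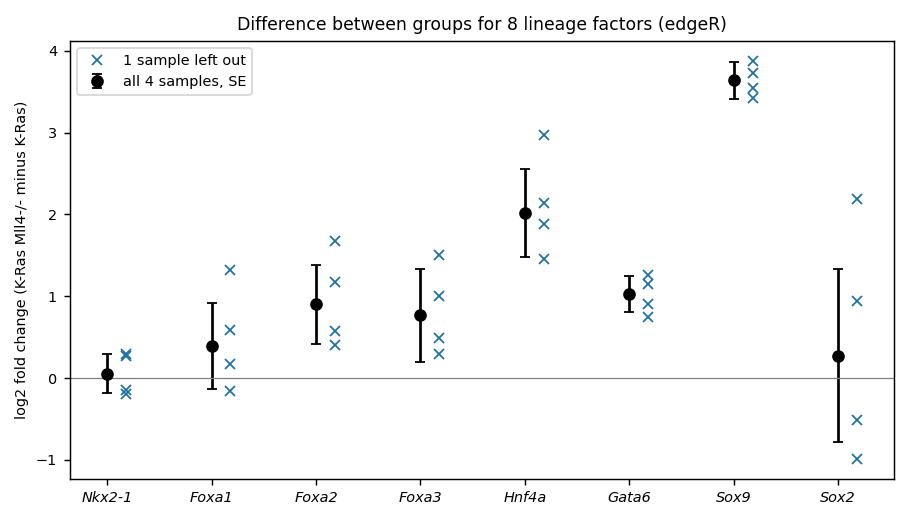
Log2 fold change (K-Ras Mll4-/- minus K-Ras) of 8 lineage factors from edgeR, with black points and bars for the estimate and SE over 4 samples and blue crosses for the fits that left out 1 sample. Sox9, Hnf4a, Gata6, Foxa2 and Foxa3 stayed above 0 in every fit shown, Sox2 spread from -0.99 to 2.19, and Pdx1 is left out because its K-Ras reads were 0.

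The factors were set beside other genes of the same lineages from lists written without regard to how each gene moved, though with earlier results of these data known. At an unadjusted edgeR p under 0.05, 11.4% of all genes tested were higher and 10.4% lower, and each count below is to be set beside these shares. Of 16 other transcription factors of lung epithelium, 16 were tested, 3 were higher and 0 lower at an unadjusted edgeR p under 0.05, and 0 were called. Their median log2 fold change of 0.15 lay near the -0.01 of all genes. The widest differences were in Klf5 (30.1 ± 14.9 CPM in K-Ras, 89.0 ± 32.3 CPM in K-Ras Mll4-/- samples, SD, n = 2 each), a factor shared by lung and gut epithelium, and in the epithelial ETS factors Ehf (log2 fold change 1.19) and Elf3 (1.04). Grhl1 followed at 0.75.

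Of 21 other factors of stomach, gut, liver and pancreas, 11 passed the filter, 5 of those were higher and 0 lower at an unadjusted edgeR p under 0.05, and 0 were called. The median of the 11 was 0.75, and it was 1.41 without K-Ras replicate 1 and 0.38 without K-Ras replicate 2. Onecut2, a homeobox factor of liver, pancreas and gut, had 31 and 53 reads in the K-Ras samples and 3569 and 1478 reads in the K-Ras Mll4-/- samples. That is 1.24 ± 0.320 CPM against 90.9 ± 63.7 CPM (SD, n = 2 each), and the log2 fold change was 6.18 (adjusted p = 0.126 by edgeR). Onecut3 (2.84), Foxq1 (2.34) and Nkx6-3 (2.23) came next on the log2 scale, the last with less than 0.5 CPM in every sample. Nkx6-3 passed the count filter through the K-Ras Mll4-/- samples alone, so its place among the higher genes was bound to follow. The intestinal factor Cdx1, the pancreatic factor Ptf1a and the endocrine factor Neurog3 had 0 reads in all 4 samples. Cdx2, the intestinal partner of Cdx1, had 0 reads in both K-Ras samples and 1 and 11 reads in the K-Ras Mll4-/- samples.

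Of 11 other genes of early progenitors, 8 were tested, 2 were higher and 0 lower at an unadjusted edgeR p under 0.05, and 0 were called, with a median log2 fold change of 0.43. That median was 0.15 without K-Ras replicate 2, 0.65 without K-Ras Mll4-/- replicate 1 and 0.17 with a filter of 1 CPM. Hmga1 (1.24), Etv4 (0.92), Hmga2 (0.84) and Mycn (0.65) had the widest differences. Each of these was smaller than the 3.64 of Sox9. Lin28b, a regulator of early development, had 0 reads in every sample.

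The differentiation products of lung epithelium had a median near level. Of 11 tested, 1 was higher and 0 lower at an unadjusted edgeR p under 0.05, 0 were called, and the median log2 fold change was -0.18. The widest differences were in the club cell product Scgb1a1 (-1.83, highest in K-Ras replicate 2), the protease Ctsh (1.61), and surfactant genes Sftpb (1.03) and Sftpa1 (-0.37).

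Of 22 products of gastric epithelium, 15 were tested, 7 were higher and 2 lower at an unadjusted edgeR p under 0.05, and 1, Gkn2, was called. The median log2 fold change was 1.60, and it was 0.59 without K-Ras Mll4-/- replicate 2, 2.50 without K-Ras Mll4-/- replicate 1, 0.84 with the replicate number as a block and 0.85 by limma-voom. Gkn1, another gastrokine, had 0 reads in both K-Ras samples and 785 and 254 reads in the K-Ras Mll4-/- samples, at 29.9 and 7.88 CPM. Their mean was at least 209-fold higher against the mean of the K-Ras floors, and the lower value was 80.3 times the higher floor. Unlike Pdx1, Gkn1 was the higher in K-Ras Mll4-/- replicate 1. Gkn3 had 4 and 5 reads in K-Ras against 37 and 128 in K-Ras Mll4-/- samples. Gkn1 and Gkn3 passed the count filter through the K-Ras Mll4-/- samples alone, so their place among the higher genes was bound to follow. Anxa10, an annexin of gastric epithelium, was at 0.841 ± 0.728 CPM in K-Ras against 70.5 ± 37.3 CPM in K-Ras Mll4-/- samples (SD, n = 2 each). Psca went the other way (log2 fold change -5.52, adjusted p = 0.189 by edgeR). It had 236 and 17 reads in K-Ras against 2 and 3 in K-Ras Mll4-/- samples, so K-Ras replicate 1 carried most of the difference. Psca passed the count filter through the K-Ras samples alone. Hnf4a is also a factor of liver and intestine. Of 15 products of those tissues, 9 were tested, 0 were higher and 2 lower at an unadjusted edgeR p under 0.05, 0 were called, and the median was 0.07. Alb (-4.79), Apob (-2.20), Fgg (-2.06) and Fga (-1.55) had the widest log2 fold changes. Alb rested on 14 and 58 reads in K-Ras against 0 and 2 in K-Ras Mll4-/- samples. It passed the count filter through the K-Ras samples alone, so its place among the lower genes was bound to follow. Apob was high in K-Ras replicate 2 only, with 613 reads against 81 in K-Ras replicate 1 and 79 and 41 in K-Ras Mll4-/- samples. Another 5 of the 9 had a positive value, among them Fabp1 (1.545), Apoa1 (1.31) and Cdh17 (1.11), none of which passed the test.

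**Figure D5:**
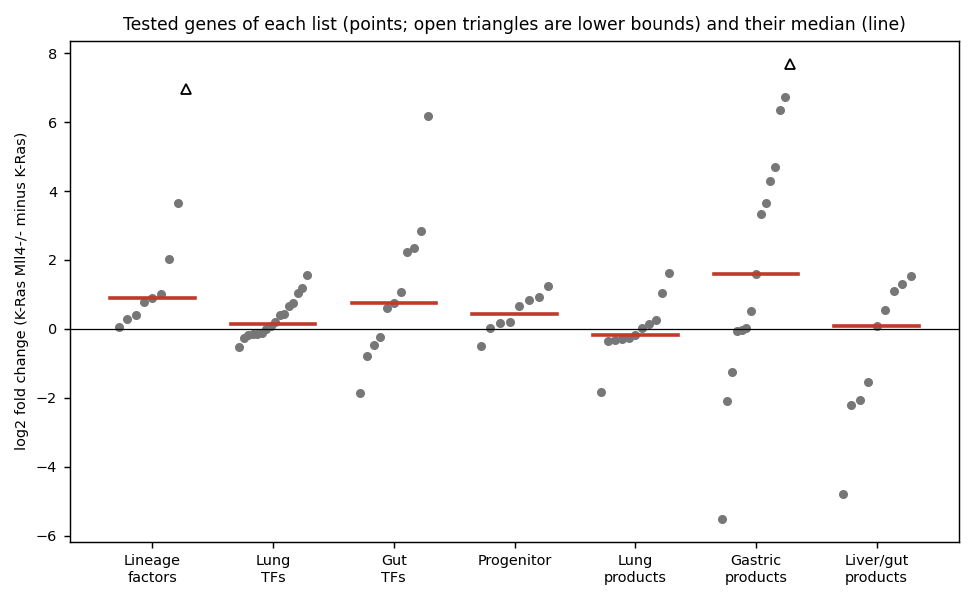
Log2 fold change (K-Ras Mll4-/- minus K-Ras, edgeR) of every tested gene in the 9 lineage factors and 6 other lists, with red lines at the medians and open triangles where Pdx1 and Gkn1, at 0 reads in K-Ras, are drawn at their lower bounds of 6.95 and 7.70. The medians of lung factors and lung products lie at 0.15 and -0.18, and those of gut factors and gastric products at 0.75 and 1.60, with leave-one-out ranges of 0.38 to 1.41 and 0.59 to 2.50.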

How the data were processed

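The authors deposited raw read counts per gene symbol for each sample, in the layout of HTSeq. STAR, HTSeq, CASAVA 1.4 and the build mm9 are named, with no role or order, per the submitters' processing notes. The gene annotation and strand setting are not given in the sources used here. Rows that tally reads outside genes were left out. Of reads aligned once, 43.25% and 42.68% fell outside genes in the K-Ras samples and 37.74% and 39.25% in the K-Ras Mll4-/- samples.

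Groups come from the sample titles. Counts were fitted over all 4 samples in edgeR 4.0.16 (R 4.3.3) with filterByExpr, TMM scaling and the robust quasi-likelihood test, with Benjamini-Hochberg adjustment over 16001 genes. SE is the log2 fold change divided by the root of F. A floor of 3 reads covers counting error only. Named genes are the members, Kmt2d, genes overlapping a member, called genes and up to 4 genes with the widest difference in each list, and the 3 genes nearest to Nkx2-1 and to Pdx1 in centred log2 CPM (prior count 2). Sftpc, Epcam, Ptprc, Trp63, Krt5, E030019B13Rik, Cdx1, Cdx2, Ptf1a, Neurog3, Lin28b, Gkn3, Fabp1, Apoa1 and Cdh17 were named outside this rule, after their values were seen. So were Krt7, Krt8, Krt18, Krt19, Cldn3 and Cldn4. Members and lists were chosen with earlier results of these data known. Lengths and GC content, from GENCODE M21, were found for 24015 of 24391 symbols. Promoters were read for 7 of the 9 members. Sox9 had no entry, and Gata6 was not searched because chromosome 18 was left out. Alternatives used DESeq2 1.42.0, limma 3.58.1 and mgcv 1.9.3.

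Marker lists gave the following at an unadjusted edgeR p under 0.05, where 11.4% of all genes tested were higher and 10.4% lower. Higher and lower genes numbered 7 and 1 of 9 tested for epithelial cells, 0 and 0 of 9 for alveolar type 2 cells, 3 and 1 of 7 for alveolar type 1 cells, 0 and 2 of 6 for club cells, and 0 and 8 of 8 for ciliated cells. They numbered 2 and 0 of 4 for basal cells, where Krt14 passed the count filter through the K-Ras Mll4-/- samples alone. They numbered 0 and 1 of 2 for neuroendocrine cells, 0 and 6 of 8 for endothelial cells and 0 and 2 of 8 for fibroblasts. For smooth muscle they were 0 and 1 of 7, for mesothelial cells 1 and 1 of 3, and for leukocytes 0 and 1 of 8.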

Additional observations from a re-analysis of the deposited data

How the results depend on the processing

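Against 6 called genes, the scalings, the offsets for GC content and length, and the filter of 1 CPM gave 4 to 7. No count filter gave 44, DESeq2 gave 1613, the likelihood ratio test gave 1503 and limma-voom gave 0, with 3228 genes at an unadjusted p under 0.05. Leaving out 1 sample gave 0 to 528, the latter without K-Ras replicate 1. The labels number the replicates alike in both groups, without saying what a number shares, and deviations of same-numbered samples correlated at 0.21 across genes. With the replicate block 217 genes were called (211 with GC and length offsets). Under the block Sox9 was called at 3.65 (adjusted p = 0.0157 by edgeR; 3.67 with offsets) and Pdx1 at 11.50 (adjusted p = 0.0234 by edgeR; 11.56 with offsets), and no other member was. Pdx1 had 0 K-Ras reads and passed the filter through the other group alone, so its calls support nothing.

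Sox9 was also called with no filter (3.65), by DESeq2 (3.64) and in the likelihood ratio test (3.64). The same tests gave 2.02 and 2.02 for Hnf4a, 1.03 and 1.02 for Gata6, and 10.98 and 11.45 for Pdx1, whose fitted values are no bounds. With 1 sample left out the log2 fold change ranged from -0.19 to 0.29 for Nkx2-1, -0.16 to 1.32 for Foxa1, 0.40 to 1.67 for Foxa2, 0.29 to 1.505 for Foxa3, 1.45 to 2.97 for Hnf4a, 10.59 to 12.06 for Pdx1, -0.99 to 2.19 for Sox2, 3.42 to 3.88 for Sox9 and 0.75 to 1.26 for Gata6. Nkx2-1, Foxa1 and Sox2 changed sign there, at -0.15, -0.16 and -0.51 without K-Ras replicate 1, and at -0.19 and -0.99 for Nkx2-1 and Sox2 without K-Ras Mll4-/- replicate 2. The cause was not tested. The filter of 1 CPM removed Foxa3 and Pdx1. Depth limits Foxa3, with 14 to 41 reads.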
